A study of Homo sapiens with 14 samples.

Results

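The cytosolic ribosomal proteins are the structural proteins of the ribosome that works in the cytoplasm. Their genes were taken by symbol, as every protein-coding entry named RPL or RPS with a number (and a closing A, X or L where present), together with RPLP0, RPLP1, RPLP2 and RPSA. That rule gave 79 of the 28120 genes counted, of which 47 encode proteins of the large subunit and 32 proteins of the small subunit. RPL15 and RPL26 are not analysed here, and FAU, which encodes a ribosomal protein fused to a ubiquitin-type domain, falls outside the rule and is described separately.

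The cells were PANC-1, an established human pancreatic cancer line, and RNA was sequenced in 14 libraries, 2 for each of 7 groups. The exposed groups received proanthocyanidins (PA, oligomeric plant polyphenols) at 20 µg per ml for 3, 12 or 24 h. The control groups received the solvent DMSO for 0, 3, 12 or 24 h, and each PA group was compared with the DMSO group of the same time. All groups are the same line grown in the same serum-containing medium, so a single tumour line stands for each condition.

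A ribosome holds a copy of nearly every one of these proteins, and cells keep their synthesis in step with that of ribosomal RNA. The small subunit reads the messenger RNA and the large subunit joins the amino acids. Most mammalian messenger RNAs for these proteins begin with a C followed by a run of pyrimidines, the terminal oligopyrimidine or TOP tract, through which growth signalling by mTORC1 controls their translation and stability. Ribosomal protein RNAs are among the most abundant in growing tumour cells.

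The TOP tract was looked for in the RefSeq promoter windows (GRCh38.p14), because it is the sequence feature these RNAs are known to share. A tract was counted where the annotated start is a C followed by at least 4 more C or T letters, making a run of 5 or more letters on the coding strand. Of the 79 genes 62 matched a window by symbol, and 45 of these (72.58%) had a tract at an annotated start, against 7.277% of the 10046 tested genes with a window. The share was 72.97% for the large subunit and 72.0% for the small. Each window printed here holds the 30 bases before an annotated start and the first 20 bases from it, 5′ to 3′ on the coding strand, with the tract in capitals. RPS18, RPL36, RPLP1, RPL39 and RPS27 are shown because they had large responses to PA. RPS24 and RPL34 are shown because they carry the same kind of tract and did not respond that way, and RPS27L because it has no tract.
RPS18 at chr6:33272045-33272094, plus strand: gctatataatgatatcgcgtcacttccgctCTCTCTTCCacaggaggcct
RPL36 at chr19:5690265-5690314, plus strand: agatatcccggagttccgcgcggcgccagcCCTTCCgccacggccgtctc
RPLP1 at chr15:69452788-69452837, plus strand: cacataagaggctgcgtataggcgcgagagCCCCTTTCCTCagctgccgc
RPL39 at chrX:119791611-119791660, minus strand: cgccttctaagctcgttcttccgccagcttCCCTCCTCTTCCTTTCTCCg
RPS27 at chr1:153990732-153990781, plus strand: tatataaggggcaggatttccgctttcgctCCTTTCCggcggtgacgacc
RPS24 at chr10:78033833-78033882, plus strand: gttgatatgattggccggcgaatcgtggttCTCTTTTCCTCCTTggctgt
RPL34 at chr4:108620546-108620595, plus strand: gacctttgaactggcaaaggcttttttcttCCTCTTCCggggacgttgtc
RPS27L at chr15:63157458-63157507, minus strand: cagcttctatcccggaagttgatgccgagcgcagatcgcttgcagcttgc
Other motifs were counted over the whole RefSeq promoter of 300 bases. The letters CCGGAA, the core bound by ETS factors, occurred on either strand in 35 of the 62 matched genes (56.45%), against 33.71% of tested genes, and TATAAA stood in the 50 bases before a start in 3 of 62 (4.839%), against 2.28%. These are matches of letters and not measured binding sites.

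Of the 79 genes 76 passed the expression filter, 45 of the large and 31 of the small subunit. The 3 that did not pass were RPL3L, the muscle paralog of RPL3, with 0 to 9 reads per library, RPL10L, the testis paralog of RPL10, with 0 to 2, and RPS10 with 0 to 3. RPS10 encodes a core small-subunit protein, and the read-through gene RPS10-NUDT3, which overlaps it, held 5965 to 17126 reads per library in the same table. Reads of RPS10 therefore cannot be told apart from those of its neighbour, and RPS10 was not tested. Libraries held 26403984 to 35213154 counted reads, so a count of 0 allows up to 3 reads, or 0.0852 to 0.114 CPM (reads scaled to a common library size) depending on the library, for counting error only.

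Per length, by the authors' RPKM averaged over all libraries, RPS16 was highest at 6125 RPKM, followed by RPL13A at 1735 and RPL19 at 1547 RPKM. Lowest among the tested genes were RPS29 at 1.21, RPS27L at 2.59, RPSA at 7.65 and RPL39L at 14.8 RPKM. RPS27L and RPL39L are minor paralogs of RPS27 and RPL39, whereas RPS29 and RPSA are core small-subunit genes with 32 and 74 annotated pseudogenes. How the authors' counting shared reads between such genes and their copies is not given in the sources used here, so levels of members with many copies are uncertain.

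Ribosomal protein genes took a larger share of all reads in PA libraries than in time-matched DMSO libraries at 12 and 24 h. At 3 h they held 5.81% and 5.72% of reads in the PA libraries, against 5.89% and 5.09% in the DMSO libraries. At 12 h the shares were 6.76% and 6.14% with PA, against 4.27% and 4.80% with DMSO. At 24 h they were 8.30% and 8.32% with PA, against 6.25% and 5.87% with DMSO. The groups overlapped at 3 h and stood apart at 12 and 24 h. The DMSO libraries at 0 h held 5.75% and 6.07%, so both PA libraries at 12 h lay above that starting share and both DMSO libraries at 12 h below it. At 24 h the PA libraries lay above all 8 DMSO libraries. In such bulk samples fewer cells of a type and less RNA per cell cannot be told apart, and a share says nothing of the amount of RNA per cell.

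**Figure D1:**
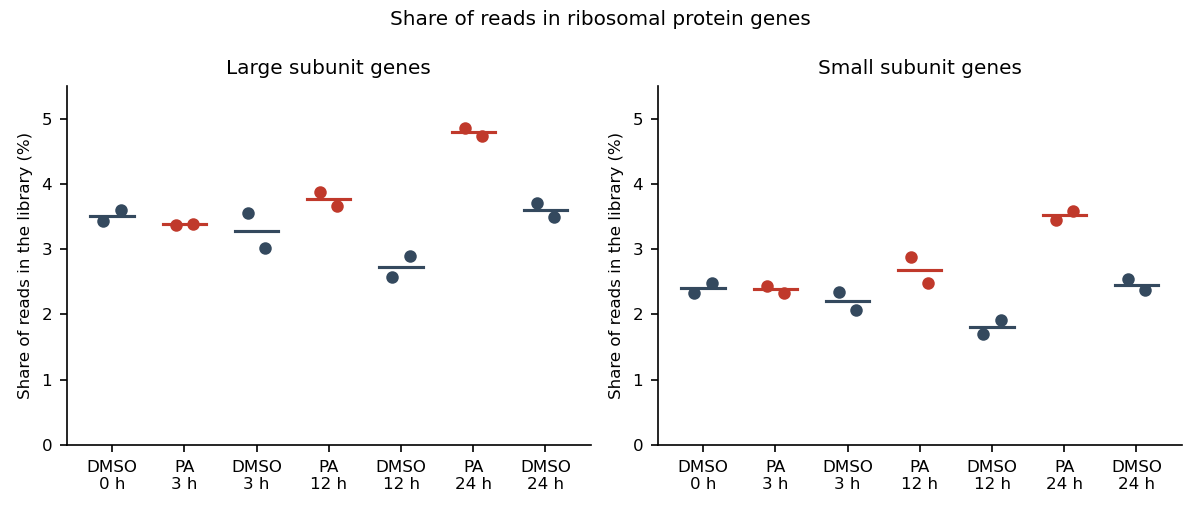
Share of each library's counted reads, in percent, in large-subunit genes (left) and small-subunit genes (right), with a point for each of the 2 libraries of a group and a line at their mean. PA groups are red and DMSO groups dark. The PA libraries at 24 h are the highest in both panels and the DMSO libraries at 12 h the lowest.

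The same course was seen gene by gene in library-size-normalised CPM. Averaged over the 2 libraries of a group, 71 of the 76 tested genes had their highest level of all 7 groups in PA at 24 h, 41 of 45 in the large and 30 of 31 in the small subunit. Their lowest level fell in DMSO at 12 h for 58 of 76, 34 of the large and 24 of the small subunit. The share of all tested genes with their extremes in these groups is not given here, so these counts describe the members only. Each group has n = 2, log2 changes are given ± SE, and adjusted p-values are from edgeR's quasi-likelihood test over the 15181 tested genes (called at 0.05). The submitters call the second library a biological replicate without saying whether it came from its own culture. The p-values can speak only of the spread seen among these libraries, which may be technical.

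**Figure D2:**
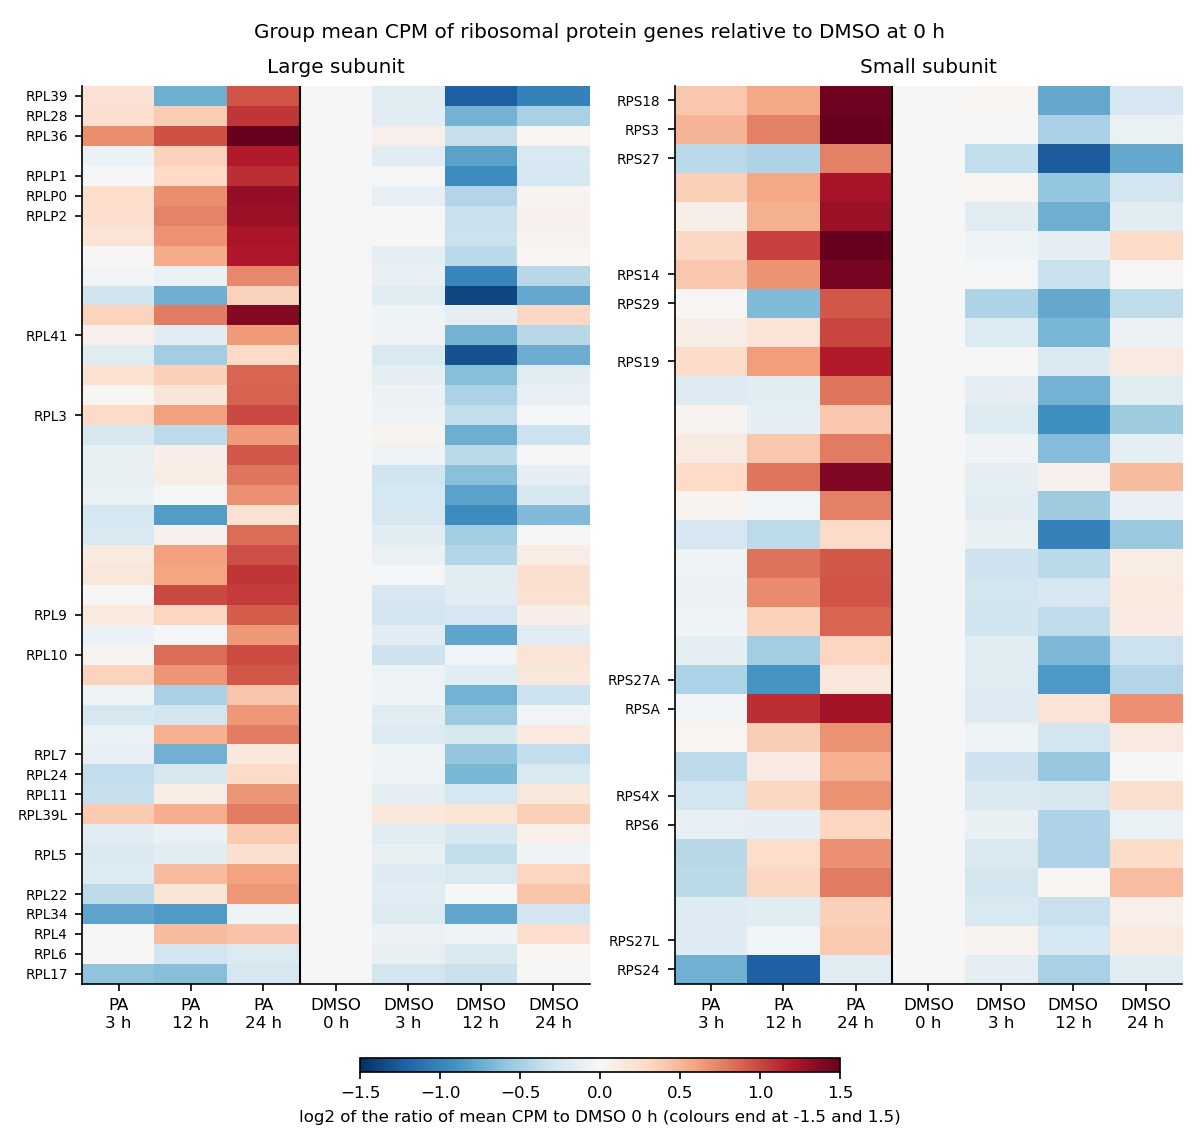
Mean CPM of each of the 76 tested genes in each group, as the log2 ratio to its mean in DMSO at 0 h (red higher, blue lower), with PA groups left of the black line and DMSO groups right of it. Rows are ordered by the change at 24 h, and rows are labelled only for some of the genes described by name. The PA 24 h column is red for nearly all rows, and the DMSO 12 h column is blue for most.

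At 3 h of PA no member passed the test in either direction, while 0.138% of all tested genes were called higher and 1.58% lower (1.72% in either direction). The median log2 change was 0.10 in the large and 0.18 in the small subunit, against -0.01 over all genes. An unadjusted p under 0.05 was reached by 12 of the 76, against 2600 of the 15181 tested genes. DESeq2 called 1 member higher, against 162 of all tested genes. In 34 members both PA libraries lay above both DMSO libraries and in 8 below, where 26.7% and 27.9% of all genes did so. The largest positive values were RPL36 (0.62 ± 0.270), RPS3 (0.52 ± 0.212), RPS29 (0.49 ± 0.198), RPL9 (0.43 ± 0.122) and RPS14 (0.43 ± 0.184). The lowest were RPS24 (-0.59 ± 0.185), RPL34 (-0.58 ± 0.238), RPL17 (-0.33 ± 0.186), RPS27A (-0.29 ± 0.177) and RPL24 (-0.29 ± 0.183). Among these 10 the smallest edgeR adjusted p was 0.103, for RPL9.

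At 12 h of PA 55 members rose and 1 fell, against 24.4% and 24.1% of all tested genes. The large subunit had 31 of 45 genes higher and none lower, and the small subunit had 24 of 31 higher and 1 lower. The median log2 change was 0.70 in the large and 0.73 in the small subunit, against 0.01 over all genes. In 65 members both PA libraries lay above both DMSO libraries, where 37.3% of all genes did so. At 24 h 63 members rose and none fell, against 27.2% and 27.5% of all tested genes, with 37 of 45 higher in the large and 26 of 31 in the small subunit. The medians at 24 h were 0.86 and 0.84, against -0.01 over all genes. Both PA libraries lay above both DMSO libraries in 72 members and below in 2, where 39.0% and 40.0% of all genes did so. The members called higher at 12 h and those called higher at 24 h had 52 in common, 3 passed only at 12 h, 11 only at 24 h, and 10 at neither time.

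**Figure D3:**
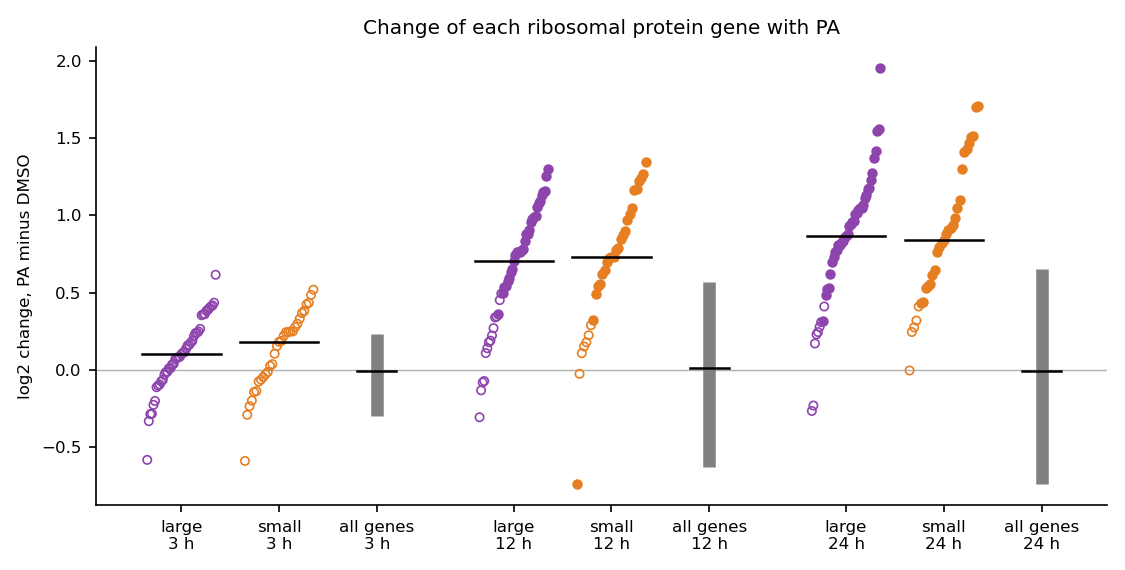
The log2 change of each tested member, PA minus DMSO at the same time, for the large subunit (purple) and the small subunit (orange), sorted by value, with filled points past the adjusted threshold and a black line at the median. Grey bars span the quartiles of all 15181 genes tested. The medians of the large and small subunit are 0.70 and 0.73 at 12 h and 0.86 and 0.84 at 24 h, and the lone filled point below 0 is RPS24 at 12 h.

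The medians of the large and small subunits lay close together in these changes. The large-subunit median minus the small-subunit median was -0.08 at 3 h, -0.02 at 12 h and 0.03 at 24 h on the log2 scale, while at 12 h large-subunit genes ran from -0.31 to 1.30 and small-subunit genes from -0.74 to 1.35. By reads, large-subunit genes outweighed small-subunit genes by a ratio of 1.35 and 1.47 in the PA libraries at 12 h, against 1.51 and 1.51 in the DMSO libraries. At 24 h the ratio was 1.41 and 1.32 with PA, against 1.45 and 1.48 with DMSO. The PA libraries lay below the DMSO libraries at both times. They did so at 3 h too, at 1.39 and 1.45 with PA against 1.51 and 1.46 with DMSO. RPS16 alone held 6.2% to 8.8% of all member reads. With RPS16 left out, a choice made after its level was seen, the ratios were 1.69 and 1.81 with PA and 1.82 and 1.79 with DMSO at 12 h, which overlap, and 1.70 and 1.60 with PA and 1.76 and 1.75 with DMSO at 24 h, which do not. At 3 h the ratios without RPS16 were 1.76 and 1.78 with PA and 1.87 and 1.80 with DMSO, which do not overlap either. No test was made of a ratio over members.

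The genes for the acidic stalk proteins, which reach out from the large subunit and recruit the elongation factors, rose together. Here and below the change of a gene is that of its RNA, and protein was not measured. RPLP1 had 1331 and 870 CPM in PA libraries at 12 h, against 416 and 507 CPM in DMSO libraries, a log2 change of 1.25 ± 0.239 (edgeR adjusted p = 0.00108). At 24 h RPLP1 had 2102 and 1747 CPM with PA, against 743 and 742 CPM with DMSO (1.37 ± 0.240, edgeR adjusted p = 0.000391). All PA values at these times exceeded the DMSO values of the same time. The lower PA library at 12 h did not exceed both DMSO libraries at 0 h, which had 868 and 914 CPM. RPLP0, which anchors the stalk, rose by 1.13 ± 0.172 at 12 h and 1.27 ± 0.173 at 24 h. RPLP2, the partner of RPLP1, rose by 1.08 ± 0.186 and 1.23 ± 0.186, and by 0.71 at 12 h without PA 12 h replicate 1. At 3 h the stalk genes stood at 0.38 ± 0.170 for RPLP0, 0.03 ± 0.235 for RPLP1 and 0.25 ± 0.184 for RPLP2, and none passed.

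Of the small subunit RPS18, a head protein at the contact with the large subunit, had the largest log2 change of all tested members at 12 h. It lies on chromosome 6 at 33272010 to 33276510 on the plus strand (GRCh38, GENCODE 29). RPS18 had 958 and 554 CPM with PA at 12 h, against 263 and 331 CPM with DMSO, 2.55-fold higher (1.35 ± 0.218, edgeR adjusted p = 0.000391). At 24 h it had 1299 and 1479 CPM with PA, against 438 and 413 CPM with DMSO, 3.27-fold higher (1.71 ± 0.220, edgeR adjusted p = 4.96e-05). The 24 h PA libraries were above every other library for this gene. Without 1 library its change at 12 h ran from 0.905 to 1.69, and that of RPLP1 from 0.92 to 1.53. RPS18 therefore did not have the largest change at 12 h in every such fit. RPS3, which lines the entry of the messenger RNA channel, rose by 1.24 ± 0.215 at 12 h and 1.70 ± 0.218 at 24 h. Its change at 12 h ran from 0.833 to 1.56 without 1 library.

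Several small-subunit genes are known from blood disorders or other roles. RPS14, whose loss is tied to a form of myelodysplastic syndrome, rose by 1.01 ± 0.186 at 12 h and 1.41 ± 0.187 at 24 h. RPS19, mutated in Diamond-Blackfan anaemia, rose by 0.84 ± 0.169 and 1.05 ± 0.170. Without PA 12 h replicate 1 the change at 12 h was 0.66 for RPS14 and 0.55 for RPS19, both still called. RPSA, also known as the laminin receptor, rose by 0.90 ± 0.178 and 0.56 ± 0.175, at a low level of 14.7 and 15.1 CPM with PA at 12 h, against 7.67 and 8.31 CPM with DMSO. RPS6, the target of the S6 kinases, had smaller rises of 0.32 ± 0.121 and 0.43 ± 0.121. RPS4X, encoded on the X chromosome, rose by 0.55 ± 0.136 and 0.44 ± 0.136. The calls of the smaller rises depended on single libraries. At 12 h RPS6 was lost without PA replicate 1 (0.29) or DMSO replicate 1 (0.20), and RPS4X without DMSO replicate 1 (0.46). At 24 h RPS6 (0.35 and 0.40) and RPS4X (0.42 and 0.35) were lost without PA replicate 1 or DMSO replicate 2, and RPSA without PA replicate 2 (0.42), DMSO replicate 1 (0.57) or DMSO replicate 2 (0.55). RPS29 stood at 0.11 ± 0.205 at 12 h (edgeR adjusted p = 0.689) and rose by 1.30 ± 0.199 at 24 h.

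RPL39, which encodes a short protein in the wall of the exit tunnel for the growing peptide, had the largest log2 change of all tested members at 24 h. The gene lies on chromosome X at 119786504 to 119791643 on the minus strand (GRCh38, GENCODE 29). RPL39 had 422 and 421 CPM with PA at 24 h, against 109 and 109 CPM with DMSO, 3.88-fold higher (1.96 ± 0.219, edgeR adjusted p = 1.78e-05). At 12 h it had 168 and 95.3 CPM with PA, against 89.0 and 97.9 CPM with DMSO, and the groups overlapped (0.49 ± 0.213, edgeR adjusted p = 0.0691). The DMSO libraries at 0 h had 194 and 244 CPM, so the DMSO libraries at 24 h were below the starting level and the PA libraries above it. Its paralog RPL39L, known from male germ cells, stood at 0.34 ± 0.180 at 12 h and 0.41 ± 0.179 at 24 h and passed at neither time.

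RPS27, which encodes a small-subunit protein with a zinc finger, rose by 0.79 ± 0.234 at 12 h and 1.51 ± 0.238 at 24 h. Its call at 12 h was lost without PA 12 h replicate 1 (0.44) or DMSO 12 h replicate 1 (0.585). It had 1052 and 981 CPM with PA at 24 h, against 363 and 349 CPM with DMSO. Its paralog RPS27L, a p53 target, stood at 0.22 ± 0.129 at 12 h and 0.25 ± 0.128 at 24 h and passed at neither time. Whether the changes of a gene and its paralog differ was not tested.

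Among the other large-subunit genes RPL36 rose by 1.30 ± 0.274 at 12 h and 1.55 ± 0.275 at 24 h. Its libraries had 344 and 165 CPM with PA at 12 h, against 85.1 and 121 CPM with DMSO. At 24 h they had 389 and 395 CPM with PA, against 125 and 143 CPM with DMSO. The PA libraries at 12 h lay far apart from each other, yet both lay above the DMSO libraries. RPL28 rose by 1.09 ± 0.241 and 1.56 ± 0.244, with 720 and 372 CPM with PA at 12 h, against 244 and 268 CPM with DMSO. Without PA 12 h replicate 1 the change at 12 h was 0.54 for RPL28 and 0.68 for RPL36, still past the threshold. RPL3, next to the catalytic centre, rose by 0.98 ± 0.155 and 1.01 ± 0.155, while its paralog RPL3L had too few reads to test. RPL10, which joins the subunit late in its assembly, rose by 0.88 ± 0.175 and 0.78 ± 0.174. RPL41, among the shortest proteins known, rose by 0.54 ± 0.178 and 1.05 ± 0.177. Its call at 12 h was lost without PA 12 h replicate 1 (0.43) or DMSO 12 h replicate 1 (0.38).

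RPL5 and RPL11 bind 5S ribosomal RNA and, when free of the ribosome, MDM2. RPL11 rose by 0.36 ± 0.137 at 12 h and 0.48 ± 0.137 at 24 h. Its call was lost at 12 h without PA replicate 1 (0.32), DMSO replicate 1 (0.29) or DMSO replicate 2 (0.41), and at 24 h without DMSO replicate 2 (0.45). RPL5 stood at 0.19 ± 0.143 and 0.31 ± 0.143 and did not pass. RPL22, an RNA-binding protein of the subunit's surface, stood at 0.18 ± 0.142 and 0.24 ± 0.142 and did not pass. With plain library totals the values of RPL5 and RPL22 at 24 h lay below 0.

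**Figure D4:**
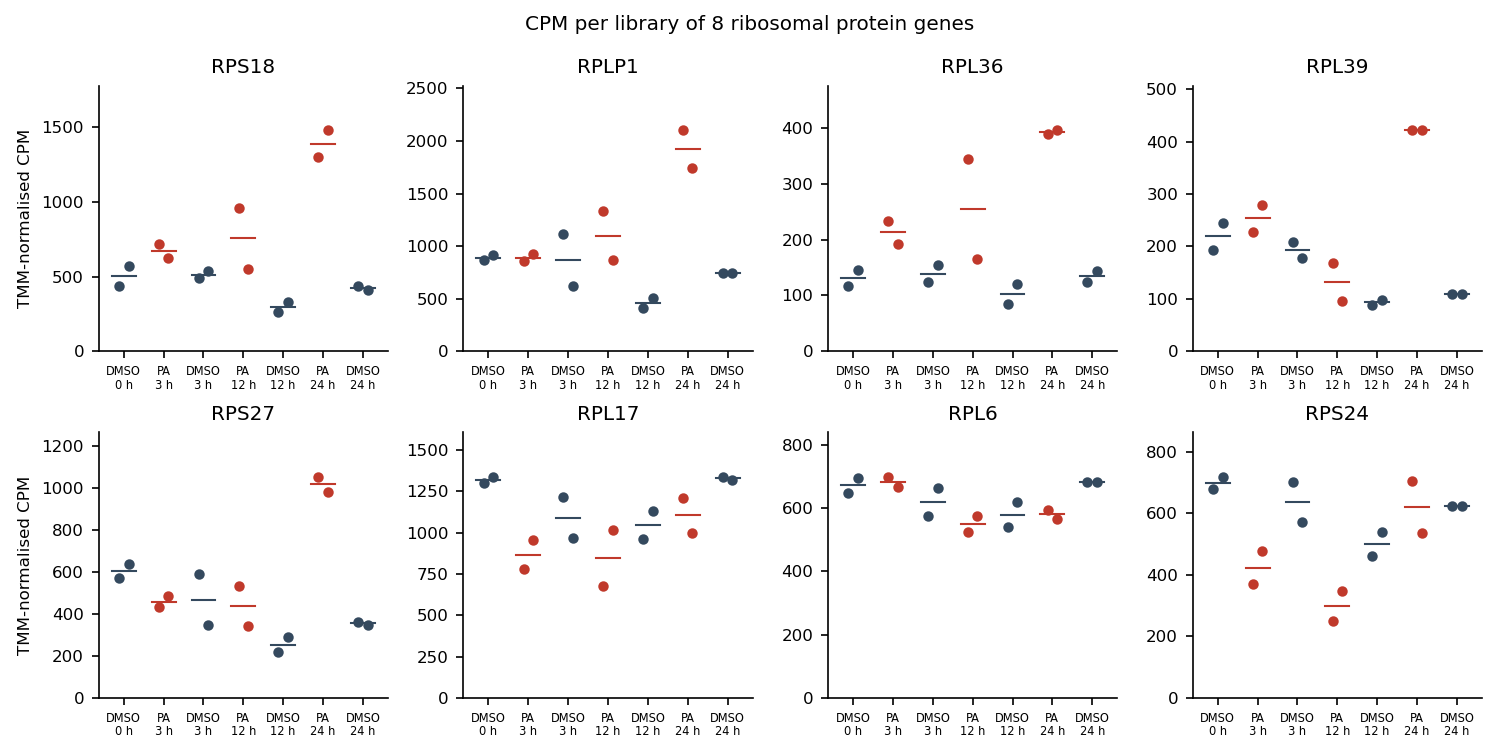
TMM-normalised CPM per library of 8 members, with a point for each of the 2 libraries of a group and a line at their mean, PA in red and DMSO in dark. The upper row and RPS27 have their highest values in PA at 24 h, while RPL17 and RPL6 do not, and RPS24 has its lowest values in PA at 12 h.

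RPS24 was the only member called lower with PA in the fit to all libraries without an offset, while some other settings called up to 3 members lower at a time. The gene encodes a small-subunit protein needed for processing of ribosomal RNA, also mutated in Diamond-Blackfan anaemia, and lies on chromosome 10 at 78033732 to 78056813 on the plus strand (GRCh38, GENCODE 29). At 12 h RPS24 had 251 and 347 CPM with PA, against 461 and 538 CPM with DMSO, and fell by 0.74 ± 0.186 on the log2 scale (edgeR adjusted p = 0.00543). At 3 h it had 370 and 477 CPM with PA, against 704 and 572 CPM with DMSO, which did not pass (-0.59 ± 0.185, edgeR adjusted p = 0.143). At 24 h the groups overlapped, at 706 and 538 CPM with PA, against 624 and 623 CPM with DMSO. The call at 12 h was lost when DMSO 12 h replicate 2 was left out and when only the 4 libraries of that comparison were fitted.

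Other genes stood at the low end without passing. RPL17, at the mouth of the exit tunnel, had 1210 and 999 CPM with PA at 24 h, against 1338 and 1320 CPM with DMSO, and stood at -0.31 ± 0.186 at 12 h and -0.27 ± 0.186 at 24 h. RPL6 stood at -0.07 ± 0.121 and -0.23 ± 0.121. These were the 2 members with both PA libraries below both DMSO libraries at 24 h. RPL34 stood at -0.08 ± 0.237 and 0.23 ± 0.237. RPL7 stood at -0.13 ± 0.131 at 12 h but rose by 0.53 ± 0.131 at 24 h, and RPL4, which reaches into the exit tunnel, rose by 0.54 ± 0.110 at 12 h and stood at 0.17 ± 0.110 at 24 h.

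Set against the median member in the same comparison, the log2 change of RPL39 lay 1.10 from it at 24 h, that of RPS18 0.85 and that of RPS3 0.84. On the low side RPL17 lay -1.13 from the median member, RPL6 -1.09 and RPS24 -0.86. At 12 h RPS24 lay -1.47 and RPL17 -1.03 from it.

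The difference between PA effects at 2 times was tested in the same fit. The effect at 24 h exceeded that at 3 h in 39 members, 25 of the large and 14 of the small subunit, and in the other direction in none, against 8.24% and 6.2% of all tested genes. The effect at 12 h exceeded that at 3 h in 2 members, against 2.1% of all genes higher, 0.685% lower and 2.79% in either direction. The effects at 24 h and 12 h differed for no member by edgeR, with 0.263% of all genes called higher, 0.158% lower and 0.422% in either direction. An unadjusted p under 0.05 was reached by 12 members, against 1467 of the 15181 tested genes. DESeq2 called 2 members, against 135 of all tested genes higher and 68 lower. For both comparisons with 3 h, fits without 1 library moved the count of all genes called higher in the same direction as that of the members. The count of 39 depended on single libraries. Leaving out a DMSO library at 24 h gave 13 (replicate 1) or 4 (replicate 2), and leaving out a DMSO library at 3 h gave 6 (replicate 1) or 33 (replicate 2). Leaving out a PA library at 24 h gave 25 (replicate 1) or 15 (replicate 2), and at 3 h 16 (replicate 1) or 9 (replicate 2). The count of 2 was 48 with replicate 2 of PA at 12 h left out. It was 13 when replicate 2 of DMSO at 3 h was missing, 1 when replicate 1 of PA at 3 h was, and 0 for each of the other 5 libraries.

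Under DMSO alone the genes also moved with time. At 3 h against 0 h no member passed and 0.0% of all genes did so. An unadjusted p under 0.05 was reached by 2 members, against 215 of the 15181 tested genes, and DESeq2 called no member. The median log2 change of the members was -0.14, against 0.00 over all genes. Both DMSO libraries at 3 h lay below both at 0 h in 28 members and above in 0, where 12.6% and 12.5% of all genes did so. At 12 h against 0 h 15 members were lower and none higher, 10 of the large and 5 of the small subunit, against 1.13% and 0.323% of all tested genes. The median log2 change of the members was -0.46, against 0.00 over all genes. Both DMSO libraries at 12 h lay below both at 0 h in 64 members, where 30.7% of all genes did so. The largest falls were RPL37 (-1.37 ± 0.182, edgeR adjusted p = 0.00328), RPL38 (-1.30 ± 0.216), RPS27 (-1.25 ± 0.236), RPL39 (-1.23 ± 0.215) and RPS28 (-1.01 ± 0.216), named by the size of the fall after their values were seen. RPL37 had 530 and 665 CPM at 12 h of DMSO, against 1490 and 1596 CPM at 0 h. At 24 h against 0 h RPL35A (-0.66 ± 0.157), RPL37 (-0.77 ± 0.180) and RPL39 (-1.01 ± 0.214) were lower and none was higher, against 1.93% and 0.527% of all genes (2.46% in either direction). Both DMSO libraries at 24 h lay above both at 0 h in 23 members and below in 31, where 27.7% and 29.8% of all genes did so. Leaving out any 1 of the 4 libraries compared lowered the 15. In these fits, and in those for 24 h against 0 h, fewer of all genes were called lower as well. At 0 h the loss of replicate 1 left 5 and that of replicate 2 left 0, and at 12 h the loss of replicate 1 left 0 and that of replicate 2 left 1. The 3 at 24 h became 0 when any of the 4 libraries compared was missing.

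The PA effect at 12 h and the DMSO change between 0 and 12 h share the 2 DMSO libraries at 12 h. Set against DMSO at 0 h, both PA libraries at 3 h lay above in 20 members and below in 28, where 29.6% and 30.8% of all genes did so. Both PA libraries at 12 h lay above in 37 members and below in 23, where 32.3% and 34.2% of all genes did so. Both PA libraries at 24 h lay above in 69 members and below in 2, where 37.3% and 41.0% of all genes did so. RPS18 at 12 h, for example, had 958 and 554 CPM with PA, against 438 and 573 CPM at 0 h, and RPS27 had 532 and 343 CPM with PA, against 571 and 637 CPM at 0 h. The counts in PA at 12 h thus lay on either side of the starting level, and those at 24 h above it for most members.

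Base composition and length of the RNA moved with these changes. Across the 76 members Spearman's correlation of the PA change at 12 h with the GC content of the longest transcript was 0.64, and it was 0.64 across 14995 other genes. At 24 h it was 0.32 for members and 0.58 for other genes. The points share the same libraries, and genes are not independent replicates. Per library the slope of log2 CPM on GC content ran from 0.028 to 0.578 per 10 percentage points in the PA libraries, against -0.319 to -0.062 in the DMSO libraries. The 2 PA libraries at 12 h were 0.578 and 0.124. Their Spearman correlation over all tested genes was 0.978, the lowest between replicates of any group. Of the 76 members 60 were higher in replicate 1 than in replicate 2, by a median over all 76 of 0.31 on the log2 scale. The share of all genes higher in replicate 1 is not given here. Without that replicate 43 members were higher and 1 lower at 12 h, all 43 of them among the 55. The change of DMSO at 12 h against 0 h had a Spearman correlation with coding length of 0.50 over members and 0.28 over 12746 other genes. Its correlation with GC content was 0.17 over members and -0.33 over other genes. Members with a coding length up to 400 nt had a median of -0.71 in that comparison (10 of 24 lower) and those over 600 nt -0.27 (1 of 23 lower). Other genes up to 400 nt had a median of -0.27 (43 of 598 lower), and other genes over 600 nt 0.02 (73 of 11196 lower).

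**Figure D5:**
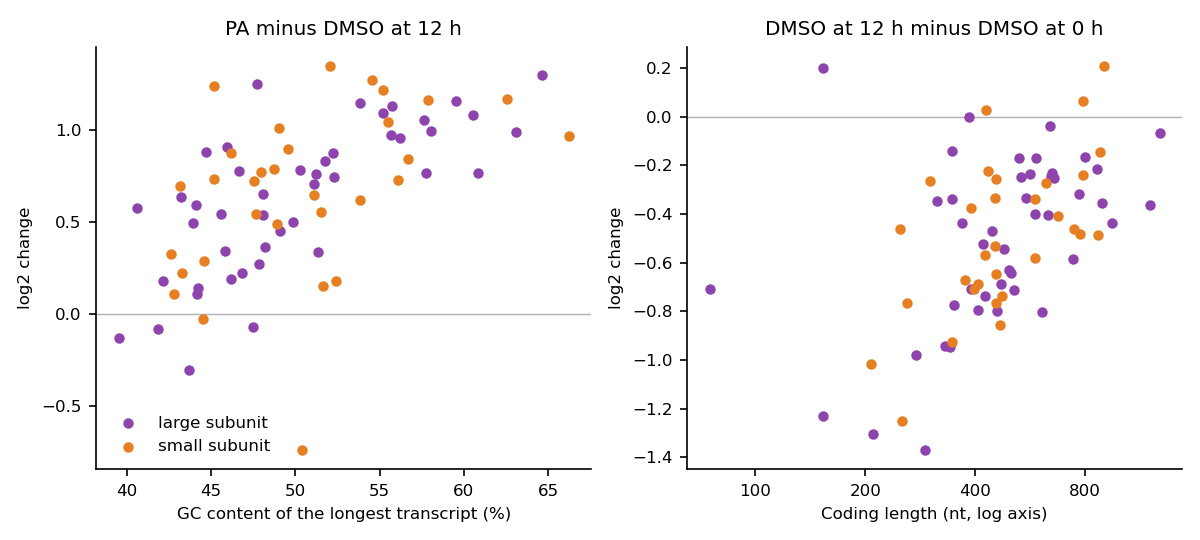
Left, the log2 change of each member at 12 h, PA minus DMSO, against the GC content of its longest transcript in percent. Right, its log2 change in DMSO at 12 h minus DMSO at 0 h against coding length in nucleotides on a log axis. Purple points are large-subunit and orange points small-subunit genes. The left-hand values are higher at higher GC content, and the largest falls on the right belong to short coding sequences.

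Removing each library's trend on GC content and transcript length left 54 members higher and 1 lower at 12 h, 46 of them shared with the 55. At 24 h it left 63 higher and none lower, 57 of them shared with the 63. Over all 15181 tested genes it left 3452 higher and 2667 lower at 12 h and 4188 and 3349 at 24 h. Among the members the correlation with GC content was then -0.42 at 12 h and -0.51 at 24 h, so the offset fitted over all genes turned the members' trend round. Removing the trend on GC content and coding length left 33 higher and 2 lower at 12 h, with 29 shared. At 24 h it left 45 higher and 3 lower, with 42 shared. Over all 15181 tested genes it left 3091 higher and 2952 lower at 12 h and 3739 and 3613 at 24 h. Only the 84.46% of tested genes with a coding length were corrected, and the rest entered these totals without an offset. The median member change was then 0.30 at 12 h and 0.40 at 24 h. Other genes with a coding length up to 400 nt, without any such correction, had medians of 0.29 at 12 h and 0.44 at 24 h, against 0.63 and 0.96 for the 24 members of that length. Library size scaling also bore on the levels. With plain library totals in place of TMM factors the median of all genes moved to -0.17 at 12 h and -0.37 at 24 h, and that of the members to 0.54 and 0.49, with 48 higher and 1 lower at 12 h and 50 higher and 2 lower at 24 h. The split of all genes then became 2713 higher and 4554 lower at 12 h and 2435 higher and 6145 lower at 24 h.

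Other properties of the genes that the rule did not use were set beside the changes. At 24 h 39 of 44 tested members with a TOP tract in a RefSeq window were higher, with a median of 0.93, and 10 of 16 with a window and no tract, with a median of 0.80. At 12 h the counts were 31 of 44 and 11 of 16, with medians of 0.76 and 0.60. The PA effect at 24 h was called above that at 3 h in 27 of the 44 and 4 of the 16. The medians of that difference were 0.81 and 0.55. For 24 h minus 12 h none was called in either subset, and the medians were 0.25 and 0.04. The tract printed for RPS24 spans 14 letters, that of RPL39 19 letters and that of RPS18 9 letters. Tracts were read at annotated starts, and starts were not measured here. The 16 without a tract include RPL3 and RPS7, whose annotated starts are a C in runs of 4 and 3 letters. The bearing of the tract on the changes was not tested. Members that hold a small nucleolar RNA gene within an intron were higher in 25 of 28 cases at 24 h (median 0.94), and the others in 38 of 48 (median 0.82). Of 16 members with 20 or more annotated pseudogenes 13 were higher at 24 h, and of the other 60, 50 were. Of 11 members whose exons overlap another gene on the same strand 9 were higher at 24 h. The differences between these subsets were not tested.

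Genes close to the members but outside the rule went in both directions. FAU, which encodes a small-subunit protein, rose by 1.53 ± 0.224 at 12 h and 1.73 ± 0.225 at 24 h. GNB2L1 (RACK1), a scaffold on the small subunit, rose by 0.82 ± 0.156 and 0.84 ± 0.156. RPL22L1 and RPL7L1, paralogs of RPL22 and RPL7, were lower. RPL22L1 fell by 0.90 ± 0.272 at 12 h and 1.06 ± 0.272 at 24 h, and RPL7L1 by 0.66 ± 0.154 and 0.84 ± 0.154. Of 7 such genes 3 were higher and 2 lower at 12 h and again at 24 h, with medians of 0.31 and 0.35, against 24.4% and 24.1% of all tested genes at 12 h and 27.2% and 27.5% at 24 h.

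Other RNAs known to start with a TOP tract, mostly translation factors, were higher in 9 and lower in 2 of 14 at 12 h and higher in 9 and lower in 3 at 24 h, with a median of 0.47 at each time. These are 64.3% higher and 14.3% lower at 12 h, against 24.4% and 24.1% of all tested genes. EEF1G, a subunit of the elongation factor 1 complex, rose by 1.14 ± 0.176 at 12 h and 1.52 ± 0.178 at 24 h, and EEF2, which moves the ribosome along, by 0.79 ± 0.165 and 1.21 ± 0.166. NPM1, a nucleolar chaperone, fell by 1.12 ± 0.239 and 1.05 ± 0.238, and the initiation factor gene EIF3E by 0.91 ± 0.240 and 1.01 ± 0.240.

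Genes that build ribosomes were more often lower than higher. Of 28 factors of ribosome biogenesis 5 were higher and 15 lower at 12 h, and 7 higher and 14 lower at 24 h, with medians of -0.38 and -0.44. At 12 h these are 17.9% higher and 53.6% lower, against 24.4% and 24.1% of all tested genes. At 24 h they are 25% higher and 50% lower, against 27.2% and 27.5%, so the share higher was near that of all genes. NOP58, a core protein of box C/D particles that methylate ribosomal RNA, fell by 2.14 ± 0.272 at 12 h and 2.22 ± 0.273 at 24 h. BRIX1, needed for the large subunit, fell by 2.03 ± 0.290 at 12 h and fell by 2.52 ± 0.296 at 24 h, and UTP20, of the small-subunit processome, by 1.46 ± 0.248 and 2.13 ± 0.258. FBL, the methyltransferase that works with NOP58, rose by 0.74 ± 0.144 and 0.89 ± 0.145. Of 12 genes for RNA polymerase I and its factors 1 was higher and 7 lower at 12 h, and 1 higher and 8 lower at 24 h. TTF1, the termination factor, fell by 1.24 ± 0.226 and 1.62 ± 0.229, and POLR1B, a catalytic subunit, by 0.46 ± 0.140 and 0.98 ± 0.142, whereas POLR1D, shared with RNA polymerase III, rose by 0.50 ± 0.131 and 0.84 ± 0.131. After the trend on GC content and coding length was removed, the biogenesis factors stood at 1 higher and 19 lower at 12 h and 3 higher and 18 lower at 24 h. The polymerase I genes then stood at 0 higher and 6 lower at 12 h and 1 and 7 at 24 h. The 14 other TOP RNAs stood at 10 higher and 1 lower at 12 h and 11 and 1 at 24 h. The 7 genes close to the members stood at 2 and 2 at 12 h and 4 and 2 at 24 h. All of these comparisons share their DMSO libraries with those of the members.

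Among 15 genes of growth signalling 5 were higher and 4 lower at 12 h, and 4 higher and 4 lower at 24 h. These shares of 33.3% and 26.7% at 12 h and 26.7% and 26.7% at 24 h were near those of all tested genes, 24.4% and 24.1% at 12 h and 27.2% and 27.5% at 24 h. DDIT4, an inhibitor of mTORC1, was the only gene of the list called at 3 h (0.88 ± 0.171, edgeR adjusted p = 0.0192) and rose by 2.23 ± 0.177 at 24 h. EIF4EBP1, which holds back cap-dependent initiation, rose by 1.11 ± 0.220 at 24 h. RPS6KB1, a kinase that acts on RPS6, fell by 1.74 ± 0.321, while its relative RPS6KB2 rose by 1.04 ± 0.155. MYC stood at 0.27 ± 0.151 at 24 h and did not pass. With the trend on GC content and coding length removed, the list stood at 2 higher and 6 lower at 12 h and 3 and 2 at 24 h.

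As a check of the label, the epithelial keratins KRT7, KRT8, KRT18 and KRT19 summed to 10460 to 15050 CPM with PA at 12 h, against 4996 to 5349 CPM with DMSO, and to 18120 to 20910 CPM with PA at 24 h, against 5960 to 5984 CPM with DMSO. VIM, a mesenchymal gene kept with them in the marker list, was at 1549 to 2862 CPM. The summed level of 6 fibroblast markers was 23.0 to 24.0 CPM with PA at 12 h, against 8.49 to 11.2 CPM with DMSO, and 20.5 to 20.95 CPM with PA at 24 h, against 13.1 to 13.8 CPM with DMSO. COL1A1 made up nearly all of it, at 8.15 to 28.9 CPM over all libraries, while DCN, LUM, COL1A2 and PDGFRB reached at most 0.222 CPM. The 4 endothelial markers summed to 0.353 to 1.30 CPM. The sum of 5 leukocyte markers was 82.1 to 83.0 CPM in PA at 24 h, against 33.3 to 39.1 CPM with DMSO, nearly all from CD68, while PTPRC and CD3E reached at most 0.145 CPM. Transcripts of the mitochondrial genome took 4.72% to 10.0% of reads in PA libraries, against 4.35% to 6.05% in DMSO libraries. The part of these differences in the changes of the ribosomal protein genes was not tested.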

How the data were processed

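RNA of PANC-1 cells in 14 libraries was sequenced as paired reads, per the labels' protocols. The deposited counts are whole-number reads per gene, not normalized, and the deposited RPKM values were computed by the authors. The submitters' processing notes name TopHat2, edgeR and GRCh38. The sources used here do not name the counting tool, the strand setting or the gene lengths.

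Counts were fitted with edgeR 4.0.16 (R 4.3.3) for all 14 libraries with 1 mean per group, TMM factors and filterByExpr, which left 15181 genes and 7 residual degrees of freedom. The coefficient of variation between replicates was 15.1%. Tests were two-sided quasi-likelihood tests with Benjamini-Hochberg adjustment over all genes. The SE is the log2 change divided by the square root of F. Depth was 26403984 to 35213154 reads per library.

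The members, gene lists and tests were chosen with earlier results of these data known. Members named with values were the 5 highest and 5 lowest at each PA time, members called against the majority, and a fixed set of 14 genes and 4 paralog pairs. A few genes are not reported here by name. On simulated data at 12 h with 200 genes changed among 15181, 83% of 4-fold and 61% of 2-fold changes were recovered. GC content and length were those of the longest GENCODE 29 transcript, coding length that of the longest annotated coding sequence, for 99.28% and 84.46% of tested genes. Trends on these were fitted per library with natural splines (5 degrees of freedom) and used as offsets. Genes without these values got no offset. Alternatives were DESeq2 1.42.0, its size factors, library totals, no filter, at least 5 CPM in 2 libraries, the compared libraries alone, a replicate block, limma 3.58.1 on RPKM as log2 with a pseudocount of 1 or 0.1, the same on genes with an RPKM of 1 or more in 2 libraries, and leaving out each library. The offset with coding length was added after the data were seen.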

Additional observations from a re-analysis of the deposited data

Results flagged for a closer look

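The effect of PA at one time was compared with that at another by the test of the difference itself in edgeR, with adjusted p-values over all genes. Between 12 h and 3 h it did so in 2 of 76 members, against 2.79% of all tested genes, so that count is near the share of all genes. Between 24 h and 3 h it did so in 39, against 14.4% of all tested genes. Among the members described by name, the stalk genes had an effect at 24 h above that at 3 h by 0.89 (RPLP0), 1.34 (RPLP1) and 0.98 (RPLP2) on the log2 scale. In the large subunit the difference was 1.57 for RPL39, 1.15 for RPL28, 0.94 for RPL41, 0.69 for RPL11 and 0.59 for RPL7. In the small subunit it was 1.54 for RPS27, 1.32 for RPS18, 1.18 for RPS3, 0.98 for RPS14, 0.91 for RPS27A and 0.77 for RPS19. The call of RPL39 held without any 1 of the 8 libraries, and that of each other gene named here was lost without at least 1. The comparisons use different DMSO libraries at each time, and the DMSO libraries themselves differed between times for some members.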

How the results depend on the processing

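The counts of members called higher with PA at 24 h stayed within 1.5 times of 63 under every alternative run, and leaving out 1 library gave 55 to 64 higher and none lower. At 12 h 55 became 33, also in the replicate block fit with that offset, after removal of the trend on GC content and coding length (2 lower), and leaving out 1 library gave 40 to 58 higher and 0 to 2 lower. Only the libraries compared gave 0 lower at 12 h. At 24 h 2 were lower with library totals or RPKM in its 3 forms, and 3 with the coding length offset, with or without the block.

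At 3 h DESeq2 called 162 of all tested genes higher and 422 lower. The GC and length offset gave 292 and 380, and the coding length offset 182 and 417. No filter gave 256 and 859, and only the libraries compared 244 and 939. Of the members DESeq2 called 1 higher, the GC and length offset 3 (2 with the block), and the coding length offset 1 (1 with the block) and 1 lower. For the members no filter gave 3 higher and 2 lower, and only the libraries compared 2 higher and 1 lower. Leaving out 1 library gave none in either direction.

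For 12 h minus 3 h 319 of all tested genes were higher. These became 724 with DESeq2, 867 with no filter and 42 with only the libraries compared. The 1251 of all genes higher for 24 h minus 3 h became 591 with library totals and 556 with log2(RPKM + 0.1). The 40 higher for 24 h minus 12 h became 135 with DESeq2 and 186 with no filter. For 12 h minus 3 h the 2 members higher became 14 with DESeq2, 34 with no filter and 12 with the GC and length offset (8 with the block). They became 5 with the coding length offset (4 with the block) and 1 with the block alone, library totals, log2(RPKM + 1) or the RPKM filter. They became 0 with log2(RPKM + 0.1) or only the libraries compared. Leaving out 1 library gave 0 to 48. For 24 h minus 3 h the 39 became 15 with library totals or the RPKM filter and 10 with log2(RPKM + 1) or log2(RPKM + 0.1), each with 1 lower, and 4 to 33 without 1 library. For 24 h minus 12 h the 0 became 2 with DESeq2 or no filter and 1 with DESeq2's size factors or either offset, with or without the block, and 0 to 5 without 1 library.

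In DMSO at 12 h against 0 h the 15 lower became 31 with DESeq2, 38 with no filter, 51 with only the libraries compared, 24 with the GC and length offset and 9 with log2(RPKM + 0.1), and 0 to 5 without 1 library. The coding length offset gave 1 higher, with or without the block. Over all tested genes the 172 lower in this comparison became 469 with DESeq2, 580 with no filter and 1455 with only the libraries compared. They became 537 with the GC and length offset and 109 with log2(RPKM + 0.1). In DMSO at 24 h against 0 h the 3 lower became 5 with DESeq2, 6 with no filter or the coding length offset (6 with the block), 10 with the GC and length offset (8 with the block), 14 with only the libraries compared, and 1 with library totals or the block alone, and 0 without 1 library. The 0 higher became 3 with DESeq2, no filter or the RPKM filter, and 4 with the coding length offset (4 with the block). It became 2 with the GC and length offset (2 with the block) or library totals. It became 1 with log2(RPKM + 1), log2(RPKM + 0.1) or at least 5 CPM, and 7 with only the libraries compared. Over all tested genes 293 were lower and 80 higher in this comparison. These became 523 and 251 with DESeq2, 433 and 270 with no filter, and 1459 and 1185 with only the libraries compared. They became 956 and 432 with the GC and length offset and 968 and 487 with the coding length offset.

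The share of reads differed between PA and DMSO by 0.273 percentage points at 3 h (-0.129 to 0.674 without 1 library), 1.91 at 12 h (1.60 to 2.22) and 2.25 at 24 h (2.07 to 2.44). It was 2.33 at 12 h from RPKM values and 2.77 at 24 h without genes of the mitochondrial genome. The large-subunit minus small-subunit median ran from -0.124 to 0.0224 at 3 h, -0.0935 to 0.0089 at 12 h and -0.051 to 0.119 at 24 h without 1 library.

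Some log2 changes turned their sign. With the GC and length offset, at 12 h RPL34 was 0.435 (0.423 with the block), RPL7 0.65 (0.65) and RPS27A 0.214 (0.208), and at 24 h RPL17 was 0.032 (0.033). With the coding length offset RPL34 was 0.185 (0.176), RPL7 0.523 (0.523) and RPL39L -0.086 (-0.082) at 12 h, and RPL39L -0.108 (-0.108) at 24 h. With library totals RPS29 was -0.083 at 12 h, and at 24 h RPL22 was -0.123, RPL34 -0.14, RPL4 -0.197, RPL5 -0.059 and RPS27L -0.121. With log2(RPKM + 1), and with the RPKM filter, these were -0.002, -0.08, -0.102, -0.15, -0.023 and -0.053, and with log2(RPKM + 0.1) RPS29 was -0.007 and RPS27L -0.069. RPS24 at 24 h was 0.012 with DESeq2 or its size factors and 0.005 with members and mitochondrial genes left out of library sizes. Leaving out 1 library turned the sign in the ranges of RPL24 (-0.534 to 0.04) and RPS27A (-0.516 to 0.002) at 3 h, RPL34 (-0.216 to 0.047), RPS29 (-0.152 to 0.336), RPL6 (-0.179 to 0.02) and RPS27A (-0.208 to 0.153) at 12 h, and RPL34 (-0.015 to 0.438) and RPS24 (-0.213 to 0.177) at 24 h. The cause was not tested.

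Replicate numbers did not pair the libraries, with residual correlations of same-numbered libraries from -0.218 to 0.244. The replicate block alone gave 53 higher and 1 lower at 12 h and 62 higher at 24 h. With 2 libraries per group a lone remaining library is assumed to vary like the other groups.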
